A study of Mus musculus with 8 samples.

Results

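Fibroblast growth factor (FGF) ligands and their receptors were examined in whole bladder of mice with partial bladder outlet obstruction and of sham-operated mice. The 10 genes are the ligands Fgf1, Fgf2, Fgf7, Fgf9, Fgf10 and Fgf18 and the receptors Fgfr1, Fgfr2, Fgfr3 and Fgfr4, taken by symbol from 38926 symbols in the deposited count files. The NeMO group, named for its nerve-sparing partial outlet obstruction, has 4 libraries, and the Sham-operated group has 4 libraries. The labels state no strain, sex, age, time since surgery or number of animals behind a library, and p-values measure the spread between libraries, which may be technical. Each file carries a batch mark, with 2 NeMO and 3 Sham libraries in batch 1 and 2 NeMO and 1 Sham library in batch 2. Each of 12 urothelial markers had at least 2541 reads in every library, and each of 9 smooth muscle markers at least 13194. The comparison of NeMO with Sham asks whether transcripts of this growth factor family differ in the obstructed bladder.

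FGF ligands are secreted proteins that bind receptor tyrosine kinases together with heparan sulfate chains on the cell surface. Receptor activation recruits adaptor proteins, switches on the MAP kinase cascade and induces feedback inhibitors of the same pathway. Fgf7 and Fgf10 are made by mesenchymal cells and act on epithelial cells through a splice form of Fgfr2, whereas Fgf1 and Fgf2 lack a classical secretion signal. In the urothelium, the epithelial lining of the bladder, Fgfr3 is a prominent receptor and its human counterpart is often mutated in bladder cancer.

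Within this family the ligands of the epithelial Fgfr2 form stood on opposite sides, Fgf7 being higher and Fgf10 lower in NeMO, and Fgf2 was higher from a low level. None of the 3 passed the test over all genes. The abundant receptors Fgfr1, Fgfr2 and Fgfr3 differed between the groups by at most 1.13-fold in the fit, and Fgfr4 was barely detected outside 1 library. Of the 10 genes 9 had enough reads to be tested, and 0 of these 9 passed an adjusted p of 0.05 in edgeR (quasi-likelihood test, Benjamini-Hochberg adjustment over 16370 genes), where 0.0733% of all genes tested passed, 0.0428% higher and 0.0305% lower. DESeq2 called 0 of the 8 genes to which it gave an adjusted p, Fgf18 having none, against 6.32% of all genes with one. At an unadjusted p under 0.05, edgeR placed 3 of the 9 (2 higher, 1 lower), while 18.5% of all genes tested lay under that value, 9.38% higher and 9.14% lower. DESeq2 placed 4 of the 9 under it, against 3148 of all 16370 genes. In edgeR with 1 library left out, 1 to 3 of the 9 were higher and 0 to 2 lower. Fgf10 was no longer under 0.05 without NeMO replicate 1 or without Sham replicate 4, and Fgf2 was not without NeMO replicate 3, NeMO replicate 4 or Sham replicate 4. Of all genes tested, 3581 of 16621 lay under it without NeMO replicate 1 and 2271 of 16600 without NeMO replicate 3. The counts were 2549 of 16591 without NeMO replicate 4 and 1656 of 16610 without Sham replicate 4. Without Sham replicate 4 batch 2 has no Sham library, so with the batch term those estimates come from batch 1 alone. For 1 of the 9, Fgf7, the NeMO and Sham libraries did not overlap, against 8.19% of all genes tested. The median log2 fold change of the 9 genes was 0.11, against -0.01 over all genes tested.

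**Figure D1:**
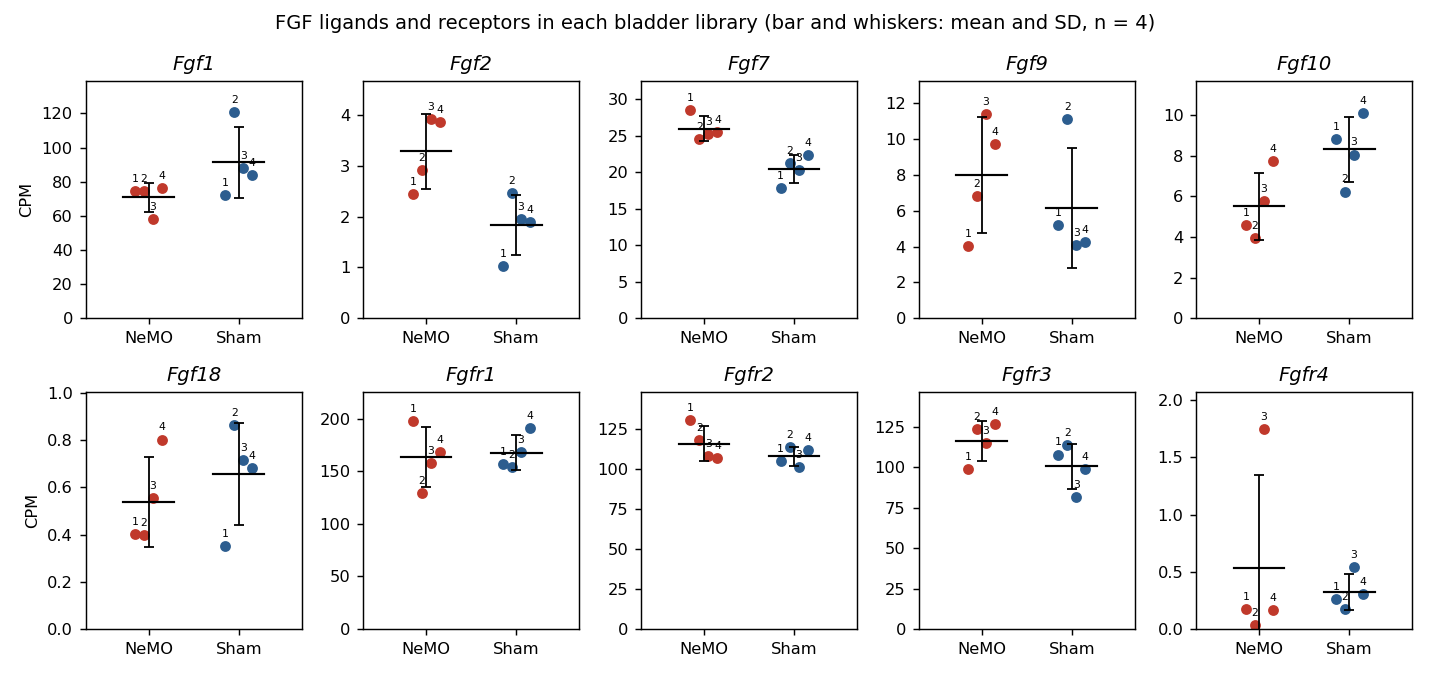
Read counts scaled to library size (CPM, vertical axis, starting at 0 in each panel) of the 10 genes in the 4 NeMO (red, left) and 4 Sham (blue, right) libraries, with the replicate number at each point and the mean and SD as bar and whiskers, cut at 0 for Fgfr4. The groups are apart only for Fgf7, and NeMO replicate 3 stands above all other libraries for Fgfr4.

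The proximal promoters of Fgf7 and Fgf10 are shown because these ligands share a receptor and stood on opposite sides. Each is the run of 250 bases before the annotated RefSeq start on GRCm38.p6, in the direction of the gene. The Fgf7 window is chr2:126034408-126034657 and the Fgf10 window is chr13:118714449-118714698, both on the plus strand. GENCODE starts Fgf10 at 118669791, so the Fgf10 window lies inside the gene by that annotation and holds for the RefSeq start alone. Capitals mark matches, on either strand, to 4 motifs. These were TATAAA (the TATA box), GGGCGG (bound by Sp1), TGANTCA (bound by AP-1) and GGAATG (bound by TEAD factors), and no match overlapped another.
Fgf7: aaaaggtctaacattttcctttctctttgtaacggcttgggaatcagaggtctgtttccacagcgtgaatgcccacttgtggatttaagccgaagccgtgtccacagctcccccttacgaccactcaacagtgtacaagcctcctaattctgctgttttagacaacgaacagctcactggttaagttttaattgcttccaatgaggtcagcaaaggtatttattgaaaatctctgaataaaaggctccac
Fgf10: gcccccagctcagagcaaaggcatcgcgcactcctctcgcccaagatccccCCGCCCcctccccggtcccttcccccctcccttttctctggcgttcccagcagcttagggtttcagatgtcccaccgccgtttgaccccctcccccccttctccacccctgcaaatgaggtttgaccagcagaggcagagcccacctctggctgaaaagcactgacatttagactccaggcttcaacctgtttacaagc
The Fgf7 window held 43.6% G and C and none of the 4 motifs. In the Fgf10 window, with 61.2% G and C, there was 1 match to GGGCGG on the reverse strand, beginning at position -199 from the start. Over all 32851 windows of the same length, the median G and C content was 52.4%. The shares of those windows with a match were 12.4% for TATAAA, 32.7% for GGGCGG, 6.75% for TGANTCA and 12.6% for GGAATG. These matches describe letters only.

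Fgf7, also called keratinocyte growth factor, measured 28.5, 24.6, 25.3 and 25.5 CPM in NeMO replicates 1 to 4, against 17.8, 21.3, 20.3 and 22.4 CPM in Sham replicates 1 to 4. CPM here are read counts scaled to library size with TMM factors, and the values rest on 743 to 995 reads in NeMO and 591 to 677 in Sham. Every NeMO library lay above every Sham library. The means were 26.0 ± 1.73 CPM in NeMO and 20.5 ± 1.97 CPM in Sham (SD, n = 4 each), a log2 fold change of 0.34 (SE 0.10, 95% interval 0.12 to 0.57, edgeR adjusted p = 0.142). With DESeq2 the adjusted p was 0.0595 at a log2 fold change of 0.35. In batch 1 alone the log2 fold change was 0.44, and in batch 2 alone, which holds a single Sham library, it was 0.17. Beside it, 6 of 8 fibroblast markers were higher in NeMO, though Dcn (log2 fold change 0.01) and Pdgfra (0.02) lay near 0. At an unadjusted edgeR p under 0.05, 1 marker was higher (Pdgfrb, 0.53) and 1 lower (Dpt, -0.38). Among all genes tested, 9.38% were higher and 9.14% lower at that value. The summed level of the 8 markers ran from 7293 to 16889 CPM in NeMO and from 8037 to 10679 CPM in Sham, with none at 0. Col1a1, Col1a2 and Dcn made up most of it. The highest sum was in NeMO replicate 3, whereas Fgf7 was highest in NeMO replicate 1. The part of these markers in the Fgf7 difference was not tested. In bulk tissue, fewer cells of a type and less RNA per cell cannot be told apart.

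Fgf10, the other mesenchymal ligand of the epithelial Fgfr2 form, measured 4.56, 3.94, 5.77 and 7.72 CPM in NeMO, against 8.81, 6.23, 8.05 and 10.1 CPM in Sham (replicates 1 to 4 in each). NeMO replicate 4 lay above Sham replicate 2, so the groups overlapped in that pair alone. Within each batch there was no overlap, since those libraries belong to different batches. Means were 5.50 ± 1.67 CPM in NeMO and 8.30 ± 1.62 CPM in Sham (SD, n = 4 each), a log2 fold change of -0.65 (SE 0.23, 95% interval -1.17 to -0.13, edgeR adjusted p = 0.189). The value was -0.58 in batch 1 and -0.78 in batch 2. Adipocyte markers ran the same way, all 8 being lower in NeMO and none at 0. Their summed level was 374 to 1239 CPM in NeMO and 971 to 2776 CPM in Sham. It was lowest in NeMO replicate 3 and highest in Sham replicate 4, whereas Fgf10 was lowest in NeMO replicate 2 and highest in Sham replicate 4. Of other marker lists, all 6 nerve and glia markers and 11 of 12 urothelial markers were also lower. By contrast, 6 of 8 fibroblast markers and all 6 endothelial markers were higher, and the remaining lists went both ways. The part of any of these markers in the Fgf10 difference was not tested. Klb, the co-receptor for endocrine FGFs that is abundant in fat, was also lower, with 1.60 ± 1.16 CPM in NeMO and 3.42 ± 2.13 CPM in Sham.

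The ratio of Fgf7 to Fgf10 CPM was 6.26, 6.24, 4.39 and 3.30 in NeMO replicates 1 to 4, against 2.02, 3.42, 2.52 and 2.22 in Sham replicates 1 to 4. NeMO replicate 4 and Sham replicate 2 again made the only overlap. The ratio was formed after the values of both genes were known and was not tested. Among 13308 other genes with a mean of at least 1 CPM, the profile over the 8 libraries nearest to Fgf10 was that of Meox2, a homeobox gene of mesenchymal cells. Its centred log2 CPM differed from those of Fgf10 by a root mean square of 0.104, whereas Fgf10 itself varied by 0.438. Meox2 measured 2.87, 2.55, 3.79 and 4.46 CPM in NeMO and 4.98, 3.57, 4.97 and 5.32 CPM in Sham. The next nearest, at 0.190, was Cp, which encodes the copper-carrying protein ceruloplasmin.

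**Figure D2:**
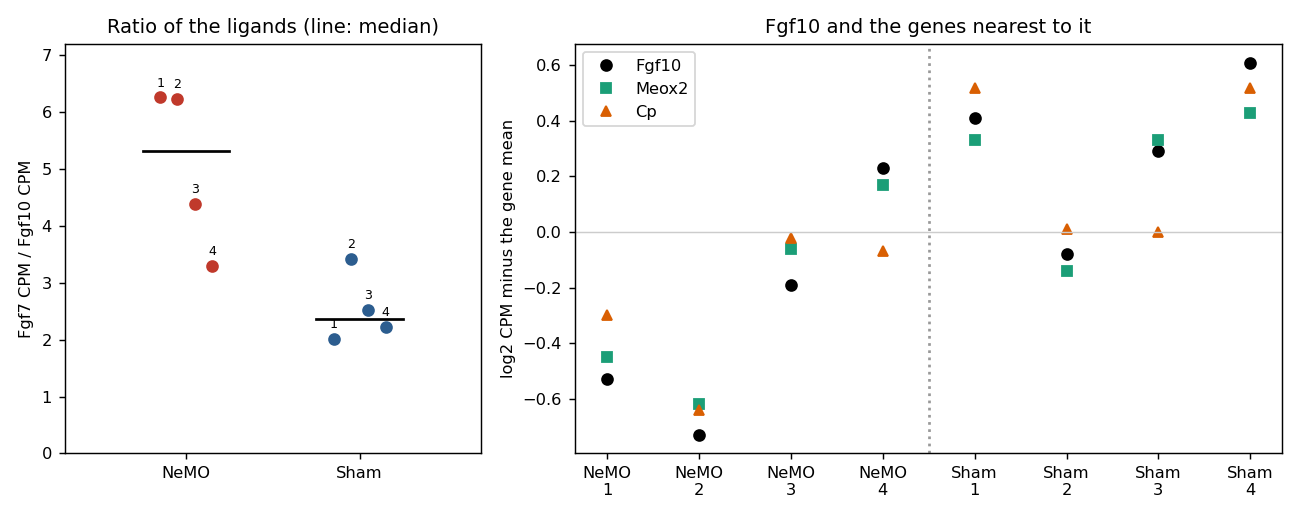
Left, the ratio of Fgf7 to Fgf10 CPM in each NeMO (red) and Sham (blue) library, numbered by replicate, with the median as a line. Right, log2 CPM minus the gene's mean (vertical axis) for Fgf10, Meox2 and Cp in the NeMO and Sham libraries, where Meox2 follows Fgf10 to within a root mean square of 0.104.

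Fgf2, the basic FGF of stromal and endothelial cells, measured 2.44, 2.91, 3.93 and 3.87 CPM in NeMO, against 1.03, 2.46, 1.95 and 1.90 CPM in Sham (replicates 1 to 4 in each). The NeMO values rest on 85 to 140 reads and the Sham values on 35 to 71. Sham replicate 2 lay just above NeMO replicate 1, and all other NeMO libraries lay above all Sham libraries. The means were 3.29 ± 0.736 CPM in NeMO and 1.83 ± 0.592 CPM in Sham (SD, n = 4 each), a log2 fold change of 0.82 (SE 0.31, 95% interval 0.12 to 1.53, edgeR adjusted p = 0.212). Batch 1 gave 0.82 and batch 2 gave 0.85. Fgf2 shares 640 exonic bases with Nudt6 on the opposite strand, and without a stated strand setting of the counting the reads of the pair cannot be told apart. Nudt6 measured 5.45 ± 0.763 CPM in NeMO and 6.28 ± 0.681 CPM in Sham, a log2 fold change of -0.22.

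Fgf1, the acidic FGF that binds all FGF receptors, was the most abundant ligand. It measured 74.8, 74.3, 58.4 and 76.1 CPM in NeMO, against 72.2, 121, 88.0 and 83.9 CPM in Sham (replicates 1 to 4 in each). NeMO replicate 3 was lowest and Sham replicate 2 highest, and Sham replicate 1 fell within the NeMO range. The log2 fold change was -0.38 (SE 0.17, 95% interval -0.77 to 0.02, edgeR adjusted p = 0.289). Without Sham replicate 2 it was -0.22, and without NeMO replicate 3 it was -0.25.

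Fgf9, a ligand of epithelium and mesothelium that signals to mesenchyme, varied more within the groups than between them. Its values were 4.04, 6.85, 11.4 and 9.71 CPM in NeMO replicates 1 to 4 and 5.21, 11.1, 4.07 and 4.25 CPM in Sham replicates 1 to 4. NeMO replicates 3 and 4 and Sham replicate 2 were high. The groups overlapped. The log2 fold change was 0.45 (SE 0.45, 95% interval -0.59 to 1.49, edgeR adjusted p = 0.631), 0.07 without NeMO replicate 3, 0.86 without NeMO replicate 1 and 0.82 without Sham replicate 2. Sham replicate 2 was also highest in the summed level of 4 mesothelial markers, at 594 CPM, against 331 to 476 CPM in the other Sham libraries. NeMO sums ran from 255 to 389 CPM, lowest in NeMO replicate 3, the library with the highest Fgf9. Most of the sum was Upk3b, at 209 to 359 CPM in NeMO and lowest in NeMO replicate 3. In NeMO replicates 1 to 4 Upk3b measured 241, 359, 209 and 317 CPM, beside 696, 1090, 677 and 848 CPM for the urothelial marker Upk3a. The sum is therefore not a measure of mesothelium alone. In NeMO replicate 3 Wt1, at 13.4 CPM, was the highest in NeMO, and Lrrn4 (12.6 CPM) and Msln (20.2 CPM) lay inside their NeMO ranges. In Sham replicate 2 Msln (111 CPM), Lrrn4 (24.8 CPM) and Wt1 (15.3 CPM) were each the highest in Sham. The part of these markers in the Fgf9 values was not tested. Fgf18, a ligand best known from skeletal and lung development, had 12 to 29 reads per NeMO library and 12 to 25 per Sham library. Its means were 0.539 ± 0.190 CPM in NeMO and 0.655 ± 0.216 CPM in Sham (SD, n = 4 each), and its log2 fold change of -0.34 had a 95% interval from -1.30 to 0.63, too wide at this depth to give a direction.

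Among the receptors, Fgfr1, the main form of mesenchymal cells, measured 198, 129, 158 and 168 CPM in NeMO and 157, 154, 168 and 191 CPM in Sham (replicates 1 to 4 in each). The Sham values lay inside the NeMO range. The log2 fold change was -0.03 (SE 0.13, 95% interval -0.33 to 0.26, edgeR adjusted p = 0.925). It was 0.15 in batch 1 and -0.35 in batch 2, so its sign depended on the libraries used.

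Fgfr2, whose epithelial form binds Fgf7 and Fgf10, measured 131, 118, 108 and 107 CPM in NeMO and 105, 114, 101 and 112 CPM in Sham. NeMO replicate 1 stood highest and the groups overlapped. The log2 fold change was 0.11 (SE 0.09, 95% interval -0.09 to 0.30, edgeR adjusted p = 0.544). Fgfr3 measured 99.2, 124, 115 and 127 CPM in NeMO, against 108, 114, 81.7 and 99.2 CPM in Sham. For Fgfr3 the NeMO replicates 2 to 4 lay above every Sham library and NeMO replicate 1 did not. Its log2 fold change was 0.17 (SE 0.12, 95% interval -0.09 to 0.44, edgeR adjusted p = 0.475), with 0.08 in batch 1 and 0.35 in batch 2. The urothelial markers beside these receptors ran the other way. Of 12, 11 were lower in NeMO, and their summed level was 7237 to 10602 CPM in NeMO and 8546 to 11310 CPM in Sham, with none at 0, and their part in these values was not tested. Counts per gene do not resolve the receptor splice forms. The splicing regulators Esrp1 and Esrp2, which favour the epithelial forms, had log2 fold changes of -0.05 (SE 0.10) and -0.12 (SE 0.11).

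Fgfr4 did not pass the filter on low counts. It had 6, 1, 60 and 6 reads in NeMO replicates 1 to 4 and 9, 5, 18 and 8 reads in Sham replicates 1 to 4. The 60 reads of NeMO replicate 3, 1.75 CPM, exceeded every other library, and Sham replicate 3 was next with 0.539 CPM. Fitted without the filter, its log2 fold change was 0.67 (SE 0.86, edgeR adjusted p = 0.778).

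**Figure D3:**
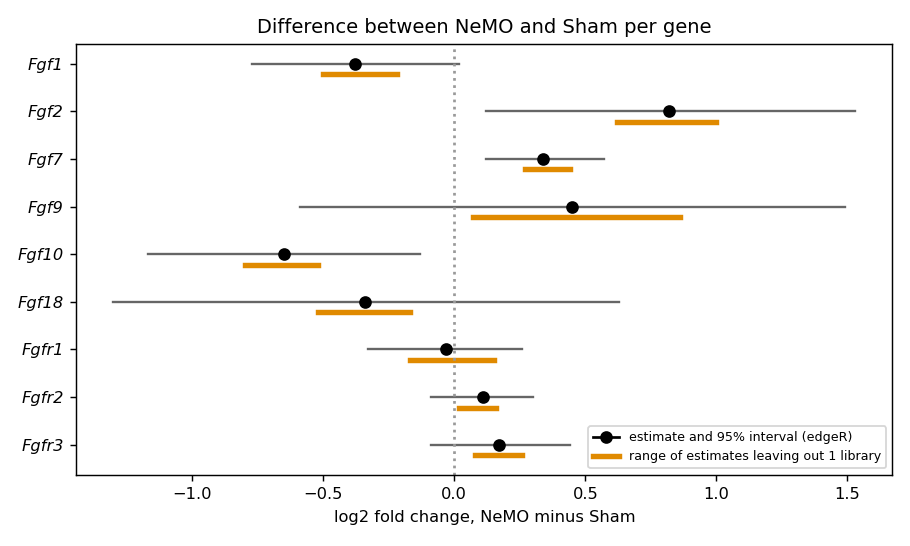
Log2 fold change of NeMO over Sham (horizontal axis) for the 9 genes tested, with the 95% interval in grey and, in orange, the range of estimates when 1 library is left out. The intervals of Fgf2, Fgf7 and Fgf10 lie on 1 side of 0, none of these genes passing after adjustment over all genes, and the orange range of Fgfr1 crosses 0.

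Levels of different genes were compared as reads per kilobase of annotated exon, scaled to the same total in each library. By the median of the 8 libraries the order was Fgfr1 (62.3), Fgfr3 (56.1), Fgf1 (51.7), Fgfr2 (38.7), Fgf7 (26.1), Fgf10 (5.63), Fgf9 (4.90), Fgf18 (1.90), Fgf2 (1.29) and Fgfr4 (0.227). Neighbours that changed places between libraries were Fgfr1 and Fgfr3 (Fgfr1 higher in 4 of 8), Fgfr3 and Fgf1 (5 of 8), Fgf10 and Fgf9 (4 of 8) and Fgf18 and Fgf2 (5 of 8). All other neighbours kept their order in 8 of 8 libraries. When the longest transcript served as length, Fgfr2 moved above Fgf1 (7 of 8 libraries) and Fgf9 above Fgf10 (5 of 8). On the exon scale the 4 receptors summed to 170, 160, 172 and 168 in NeMO and to 153, 150, 139 and 148 in Sham (replicates 1 to 4 in each), without overlap. Their summed CPM overlapped, at 371 to 428 in NeMO and 351 to 402 in Sham, so the separation depended on the scale used, and neither sum was tested. Fgfr1 made up 31.4% to 42.9% of the receptor sum in NeMO and 36.6% to 44.3% in Sham. The corresponding shares were 23.0% to 27.3% in NeMO and 24.6% to 25.9% in Sham for Fgfr2, and 29.7% to 41.4% in NeMO and 29.8% to 37.4% in Sham for Fgfr3.

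**Figure D4:**
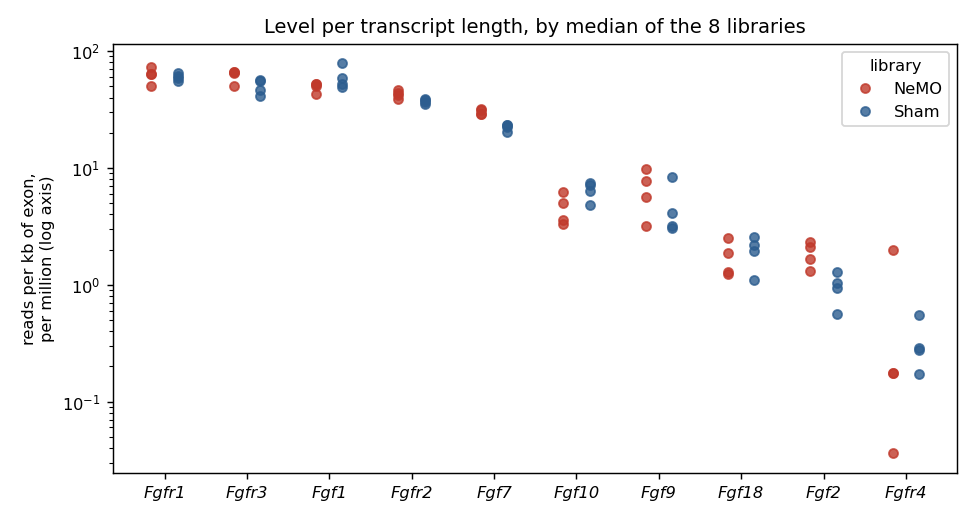
Reads per kilobase of exon, scaled to the same total in each library (vertical log axis), for each gene in the 4 NeMO (red, left) and 4 Sham (blue, right) libraries, ordered by the median of all 8. Fgfr1, Fgfr3, Fgf1, Fgfr2 and Fgf7 lie above 20 in every library, and the other 5 genes lie below 10.

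Around these genes, 84 other genes of the pathway were listed, of which 70 were tested. In edgeR 0 rose and 0 fell, while 14 higher and 2 lower of the 70 (22.9%) had an unadjusted p under 0.05. Of all genes tested 18.5% lay under that value, 9.38% higher and 9.14% lower. The pooled share was thus near that of all genes, but among the 70 it leaned to the higher side, and this lean was not tested. In batch 1 alone 14 were higher and 2 lower, at a median log2 fold change of 0.15. There, 1756 of all 16744 genes tested lay under that value in either direction. In batch 2 alone, with its single Sham library, the median was 0.08. No overlap between the groups was seen for 4 of the 70, against 8.19% of all genes tested. The median log2 fold change of the 70 was 0.10. DESeq2 called 6 higher and 1 lower, where it called 6.32% of all genes to which it gave an adjusted p, 543 higher and 410 lower. The pathway genes it called were Ncam1, Flrt2, Cbl, Hs2st1, Hs6st2 and Sulf1 on the higher side and Klb on the lower side, named after their values were seen.

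The remaining secreted ligands were close to absent. Of 12, 1 passed the filter, Fgf16, at 0.584 ± 0.305 CPM in NeMO and 0.446 ± 0.237 CPM in Sham, and Fgf3, Fgf6, Fgf8 and Fgf15 had no read in any library. All 12 stayed under 2 CPM in each library, including Fgf20, a close relative of Fgf9. Intracellular FGF homologues, which bind sodium channels and are not secreted, had 3 of 4 genes tested, led by Fgf11 at 14.2 ± 1.54 CPM in NeMO and 12.3 ± 2.23 CPM in Sham and Fgf13 at 3.24 ± 0.450 CPM in NeMO and 2.90 ± 1.04 CPM in Sham.

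Among 9 tested co-receptors and binding proteins, 2 were higher and 2 lower with an unadjusted p below 0.05, where 9.38% of all genes tested were higher and 9.14% lower. The adhesion molecules Ncam1 and Flrt2, which bind FGF receptors, had log2 fold changes of 0.57 (SE 0.13, edgeR adjusted p = 0.094) and 0.65 (SE 0.16). Klb and Kl, co-receptors for endocrine FGFs, stood at -1.41 (SE 0.38, edgeR adjusted p = 0.121) and -0.52 (SE 0.17). Klb was highest in Sham replicate 4, at 6.61 CPM, the library with the highest adipocyte marker sum. Kl measured 3.50 to 4.56 CPM in NeMO and 5.15 to 6.39 CPM in Sham, without overlap. Cd44 (0.24, SE 0.13) and the decoy receptor gene Fgfrl1 (-0.06, SE 0.15) were the most abundant of this list, and the FGF carrier gene Fgfbp1 stayed under 0.5 CPM and was not tested.

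Enzymes that build and trim heparan sulfate had 13 genes tested, and the list median was a log2 fold change of 0.22. With an unadjusted p below 0.05 there were 6 higher and 0 lower, where 9.38% of all genes tested were higher at that value. Batch 1 alone also gave 6 higher and 0 lower (median 0.21), where 1756 of all 16744 genes tested lay under that value in either direction. In batch 2 alone, with its single Sham library, the median was 0.08. Hs2st1, which adds the sulfate at the 2-O position that FGF2 binding uses, measured 52.4 ± 12.2 CPM in NeMO and 40.0 ± 3.43 CPM in Sham. Its log2 fold change was 0.47 (SE 0.11, edgeR adjusted p = 0.103, DESeq2 adjusted p = 0.0133). Sulf1, a secreted enzyme that removes sulfate from the chains, measured 121 ± 31.6 CPM in NeMO and 77.8 ± 9.84 CPM in Sham. Its log2 fold change was 0.67 (SE 0.19, edgeR adjusted p = 0.141, DESeq2 adjusted p = 0.0120). Both stood highest in NeMO replicate 3, at 70.3 and 160 CPM, as did Hs6st2, at 5.16 CPM. Without that library 4 enzymes were higher and 0 lower with an unadjusted p below 0.05, and the list median was 0.05. Of all genes tested, 2271 of 16600 lay under that value in the same fit. The most abundant enzymes, Sulf2 (-0.02, SE 0.07) and Extl3 (-0.12, SE 0.12), were near 0. After correction for length and GC content the median of this list was 0.11, with 5 genes higher at an unadjusted p under 0.05. Of all genes tested, 2166 of 16370 lay under it after that correction. The core proteins that carry the chains had 0 of 11 genes under that value, with Hspg2 at 0.21 (SE 0.17) and Sdc1 at -0.07 (SE 0.09).

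Downstream of the receptors, 11 adaptor genes had a median of 0.18, with 3 higher under an unadjusted p of 0.05, where 9.38% of all genes tested were higher. That count was 0 without Sham replicate 4 and in batch 1 alone, which give the same estimates, and 1 without Sham replicate 2. Fewer of all genes tested lay under that value in these fits too. In order they were 1656 of 16610, 1756 of 16744 and 2570 of 16633 in either direction, against 3032 of 16370 in the main fit. The phosphatase gene Ptpn11 stood at 0.05 (SE 0.09) and Plcg1 at 0.20 (SE 0.09), and Cbl, which marks receptors for degradation, measured 7.36 ± 2.47 CPM in NeMO and 3.80 ± 0.555 CPM in Sham. After the length and GC correction 1 adaptor gene was left under that value and the median was 0.03. Of all genes tested, 2166 of 16370 lay under it after that correction. The 11 feedback inhibitors had a median of 0.14, with 3 higher under an unadjusted p of 0.05, against the same 9.38%. The count was 1 without NeMO replicate 4 and 1 after the length and GC correction. Of all genes tested, 2549 of 16591 lay under that value without NeMO replicate 4. In batch 2 alone, with its single Sham library, the median was 0.04. Spred1 and Spred2, which block activation of Raf, stood at 0.32 (SE 0.09, edgeR adjusted p = 0.133) and 0.17 (SE 0.08). The inhibitors most often read as a response to FGF signalling were near 0, with Spry1 at 0.05 (SE 0.14), Spry2 at 0.01 (SE 0.19), Spry4 at -0.23 (SE 0.35) and Dusp6 at -0.01 (SE 0.26). Their intervals, -0.27 to 0.38 for Spry1, -0.41 to 0.44 for Spry2, -1.02 to 0.57 for Spry4 and -0.61 to 0.59 for Dusp6, leave room for changes of either sign. Transcriptional targets of the pathway had 0 of 9 genes under an unadjusted p of 0.05. Etv4 measured 0.201, 0.530, 2.45 and 0.830 CPM in NeMO, against 0.353, 0.0693, 0.479 and 0.532 CPM in Sham, so its log2 fold change of 1.50 (SE 0.80) stood beside a NeMO replicate 3 far above the other libraries. Etv5 stood at -0.24 (SE 0.34), Phlda1 at -0.24 (SE 0.12) and the cyclin gene Ccnd1 at 0.27 (SE 0.16).

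**Figure D5:**
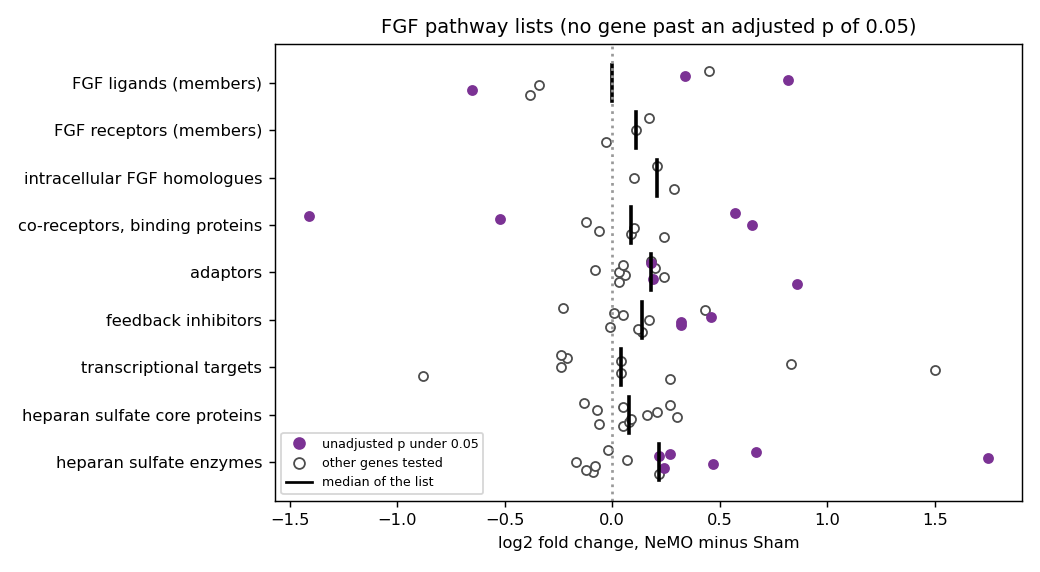
Log2 fold change of NeMO over Sham (horizontal axis) for each tested gene of the FGF lists, 1 point per gene, filled where the unadjusted p is under 0.05, with the list median as a bar. The bar of the heparan sulfate enzymes lies at 0.22 and that of the transcriptional targets at 0.04, and no point passed after adjustment over all genes.

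On GRCm38, the assembly that mm10 names, GENCODE places Fgf7 on chromosome 2 (126034658 to 126091185), Fgf10 on chromosome 13 (118669791 to 118792115) and Fgf2 on chromosome 3 (37348346 to 37410108), all on the plus strand. Fgfr1 lies on chromosome 8 (25513654 to 25575718) and Fgfr3 on chromosome 5 (33721674 to 33737068), both on the plus strand. Fgfr2 lies on the minus strand of chromosome 7 from 130162451, with the RefSeq end at 130266808. GENCODE extends that gene to 133123350, and there it shares 314 exonic bases with Ctbp2. All are protein-coding, and counts per symbol resolve no exon, intron or UTR.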

How the data were processed

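Bladder polyA RNA was sequenced with a directional kit as single-end reads, per the labels' protocols. The deposited files hold raw counts of reads for each gene symbol and library. Trimmomatic, STAR, featureCounts and DESeq2, with the build mm10, are listed per the submitters' processing notes. The sources used here give no versions, annotation, strand setting or treatment of multi-mapping reads. The batch of a library was read from the mark in its file's name. Library totals ran from 29451800 to 36375313 counts in NeMO and from 27212499 to 33459048 in Sham, so 1 CPM was 27.2 to 36.4 reads.

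The main test was edgeR 4.0.16 under R 4.3.3 (filterByExpr, minimum count 10, TMM scaling, robust quasi-likelihood F-test, terms for batch and group, 16370 genes), with DESeq2 1.42.0 as an alternative. Fold changes are NeMO over Sham. Lengths come from GENCODE M21, and promoters from RefSeq for 8 of the 10 genes. The members and lists were chosen with earlier results of these data known. Named pathway genes are the 2 most abundant of each list plus Spry1, Spry2, Spry4, Dusp6, Etv4, Etv5, Fgfrl1, Fgfbp1, Esrp1 and Esrp2, and others were named after their values were seen. Alternatives were another scaling, no filter, no batch term, each batch, a replicate block, a length and GC correction (spline, 4 degrees of freedom each) and leaving out each library. In 3 simulated comparisons over 16370 genes, edgeR recovered 17.5% of the genes altered by 0.5 on the log2 scale, 70.5% of those altered by 1 and 92.7% of those altered by 2. The simulation held no batch effect, altered few genes and took its spread between libraries from the fit. Its rates are therefore not detection rates for these data.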

Additional observations from a re-analysis of the deposited data

Results flagged for a closer look

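With 4 libraries in a group, a library was taken as standing apart when its gap to the nearest other, as a share of the range, exceeded Dixon's 95% critical value. Of the 20 groups formed by the 10 genes, 3 met this, and 18 of the 179 groups formed by these and the pathway genes. Chance gives about 1 in 20 for independent, normally spread values, whereas all these genes share the same 8 libraries. Fgf1 was low in NeMO replicate 3, at 58.4 CPM against 74.3 to 76.1 CPM in the other NeMO libraries. Fgf9 was high in Sham replicate 2, at 11.1 CPM against 4.07 to 5.21 CPM in the other Sham libraries. Fgfr4 was high in NeMO replicate 3, at 1.75 CPM against 0.0331 to 0.172 CPM in the other NeMO libraries.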

How the results depend on the processing

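No FGF ligand or receptor passed the threshold under any of the 16 alternatives to the fit, and 7 of the 9 genes tested kept their direction in all of them. Fgf18 reversed under the replicate block (0.01). Fgfr1 reversed in batch 1 alone (0.15), under the replicate block (0.02), without NeMO replicate 2 (0.06) and without Sham replicate 4 (0.15), and ran from -0.17 to 0.15 when 1 library was left out. Without Sham replicate 4 no Sham library is left in batch 2, so with the batch term the estimates repeat those of batch 1 alone. That fit and batch 1 alone are therefore not separate alternatives. Over all alternatives the log2 fold change ran from 0.17 to 0.44 for Fgf7, from -0.80 to -0.52 for Fgf10, from 0.62 to 1.09 for Fgf2 and from 0.07 to 0.97 for Fgf9. The number of other pathway genes called was 1 without the low-count filter (Ncam1), 7 with DESeq2 and 0 to 4 when 1 library was left out, the 4 being without NeMO replicate 1. The number of all genes called, 12 with edgeR, was 172 without the filter, 953 with DESeq2, 7 without the batch term, 0 in batch 1 alone (1756 at an unadjusted p under 0.05 in edgeR), 7 in batch 2 alone and 2 with the replicate block. It ran from 0 (without NeMO replicate 4 or Sham replicate 4, with 2549 and 1656 in edgeR at an unadjusted p under 0.05) to 652 (without NeMO replicate 1) when 1 library was left out. The cause was not tested. Same-numbered libraries did not deviate together (correlations across genes of -0.22, 0.171, -0.196 and -0.172, and 0 of 4 NeMO libraries matched their own number best). With 4 libraries in each group this check cannot exclude that the numbers mark pairs. With the longest transcript as length, chosen after the data were seen, median levels were 95.5 for Fgfr1, 74.4 for Fgfr3, 70.7 for Fgfr2 and 55.6 for Fgf1. Intervals for genes with few reads, such as Fgf18 and Fgfr4, are wide.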

Other observations

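Fgf9 and its relatives Fgf16 and Fgf20 had the same highest library in each group, seen after their values were known and not tested. Fgf16 had 15, 10, 35 and 20 reads in NeMO replicates 1 to 4 and 10, 23, 13 and 8 reads in Sham replicates 1 to 4. Fgf20 had 2, 6, 15 and 6 reads in NeMO and 2, 8, 2 and 3 reads in Sham. For all 3 genes of this subfamily the highest NeMO library was replicate 3 and the highest Sham library was replicate 2, while the order of the other libraries differed between the genes.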
